A study of Rattus norvegicus with 2 samples.

Results

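The fibrous collagens I, III, V and VI were followed in droplet profiles of rat meniscus cells; the meniscus is a fibrocartilage cushion in the knee. The 8 genes listed for these collagens were matched by symbol. Of these, 7 were measured among the 25399 genes in the files: Col1a1, Col3a1, Col5a1, Col5a2, Col5a3, Col6a1 and Col6a2. Col6a3 was not analysed here. The study set 1 library from aged meniscus against 1 library from young meniscus, both from Rattus norvegicus and both made with a 3' droplet kit after digestion with a protease and then a collagenase and sorting for viable cells. The labels give no strain, sex, age in numbers, number of animals or treatment. With 1 library per age there was no test across animals. Every difference below is between these 2 libraries, and the 95% intervals cover counting error only.

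Fibril collagens are built from alpha chains that wind into a helix and assemble outside the cell. Type I is the main fibril of fibrocartilage, tendon and bone, type III co-assembles with it in extensible tissue, and type V sits inside type I fibrils and sets their diameter. Type VI forms beaded filaments around cells, including the pericellular matrix of chondrocytes. Hyaline cartilage is built mainly on type II collagen instead.

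Stromal barcodes were those without a UMI (a counted RNA molecule) of Ptprc, the pan-leukocyte gene CD45, and with at least 10 UMIs of Dcn, Chad, Col2a1 or Col1a1. This gave 505 of 6085 kept aged barcodes (8.30%) and 205 of 8773 kept young barcodes (2.34%), out of 8422 and 9914 deposited barcodes with 47228750 and 65051972 UMIs in the aged and the young library. The median depth was 5968 UMIs per stromal barcode in the aged library and 15617 in the young library, with median mitochondrial shares of 3.02% and 5.41% in the aged and the young library. No stromal barcode was among the 18 barcode sequences that both libraries share. Col1a1 is itself part of the rule, but it alone admitted only 3 aged and 5 young barcodes. Stromal barcodes were split, without overlap, by the gene that admitted them, with Col2a1 (type II collagen) before Chad (chondroadherin), Chad before Dcn (decorin), and Col1a1 alone last. The Col2a1 gate held 0 aged and 112 young barcodes, the Chad gate 33 aged and 17 young, and the Dcn gate 469 aged and 71 young.

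The gates differ in their other markers, and so does the make-up of the 2 libraries. At least 3 fibroblast markers were found in 92.3% of aged and 100% of young Dcn-gate barcodes, and at least 3 hyaline-type chondrocyte markers in 100% of the young Col2a1-gate barcodes. The fibroblast list includes Dcn, the hyaline-type list Col2a1 and the meniscal chondrocyte list Chad, so each admitting gene supplies a marker of its own list. The hyaline-type list summed to 41.4 CPM (UMIs per 1000000 UMIs) in the aged Dcn gate and 65.9 CPM in the young Dcn gate, with Col9a3, Matn3 and Matn1 at 0 in both. The meniscal chondrocyte list summed to 6478 CPM in the aged and 2721 CPM in the young Dcn gate, with at least 3 of its markers in 41.8% of aged and 35.2% of young barcodes. Neutrophil marker RNA summed to 1401 CPM in the aged and 2215 CPM in the young Dcn gate, where 5.33% of aged and 39.4% of young barcodes held at least 3 such markers. Erythroid marker RNA summed to 6784 and 208 CPM in the aged and young Dcn gate, and osteogenic marker RNA, a list that includes Postn, to 529 and 11899 CPM in the aged and young gate with Sp7 at 0 in both. At least 3 osteogenic markers were found in only 1.49% of aged and 5.63% of young Dcn-gate barcodes. Bglap, a gene of that list, had 5025 and 6363 UMIs in 2 young Dcn-gate barcodes. Endothelial markers summed to 3.4 CPM in the aged and 6.9 CPM in the young Dcn gate, with Cdh5 and Emcn at 0 in both, and mural markers to 45.5 and 309 CPM in the aged and young gate, with Notch3 at 0 in both. The part of these cells in the collagen differences was not tested.

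All 7 collagen genes were lower in the aged than in the young stromal barcodes, and type I and type III carried most of the difference. The 7 genes together made up 7284 CPM in the aged and 44455 CPM in the young stromal barcodes, a log2 ratio of −2.61 (95% interval −2.63 to −2.59). Within the Dcn gate, whose barcodes were admitted by the same gene, they made up 7840 CPM in the aged and 100244 CPM in the young library, a log2 ratio of −3.68 (−3.70 to −3.66). Among stromal barcodes 6 of the 7 genes were at least 2-fold lower in the aged library and 0 were higher, where 8.66% of all 9348 genes tested were at least 2-fold lower. Within the Dcn gate 7 of 7 were at least 2-fold lower and 0 higher, where 6.68% of 8462 genes were lower. Split at 10 UMIs of Postn after the data were seen, the gate had 5 of 7 genes at least 2-fold lower in each class. The summed log2 ratio was −2.87 under 10 and −2.39 at 10 or more. The share of all genes at least 2-fold lower was not computed within these classes. The median log2 ratio of the 7 genes was −1.38 among stromal barcodes and −2.11 in the Dcn gate, beside 0.06 and −0.02 over all genes tested in these barcodes. Fewer cells of a kind and less RNA per cell within a summed gate cannot be told apart, and the counts per barcode are therefore given for each gene. These counts are raw and carry a gap in depth. The median Dcn-gate barcode had 5964 UMIs in the aged and 17974 UMIs in the young library.

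**Figure D1:**
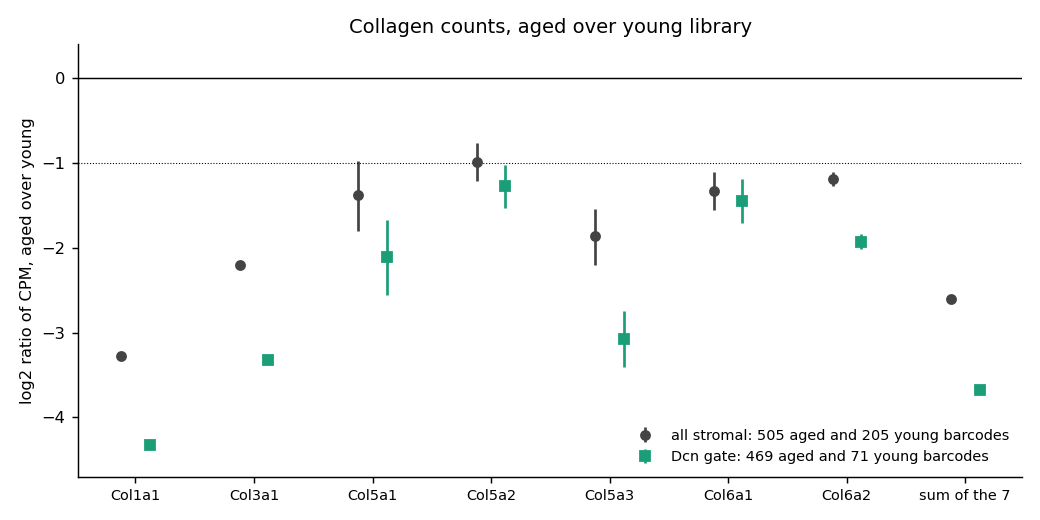
Log2 ratio of CPM, aged over young (y axis), for each of the 7 collagen genes and their sum (x axis), in all stromal barcodes (circles) and in the Dcn gate (squares), with exact 95% intervals for counting error; the dotted line marks 2-fold lower in the aged library. The Dcn-gate ratio of Col1a1, −4.33, is the lowest of the single genes and that of Col5a2 in stromal barcodes, −0.99, is the nearest to 0.

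Col1a1 encodes the alpha 1 chain of type I collagen. It reached 2461 CPM in the aged and 23866 CPM in the young stromal barcodes, a log2 ratio of −3.28 (−3.31 to −3.24). Single Dcn-gate barcodes held 0 to 972 Col1a1 UMIs with a median of 8 in the aged library, against 1 to 3322 UMIs with a median of 698 in the young library. The middle ranges of raw counts did not overlap: the quartiles were 4 and 17 UMIs in the aged gate and 332 and 1432 UMIs in the young gate. Scaled to the depth of each barcode, the median was 1402 CPM in the aged and 42259 CPM in the young gate. At least 100 UMIs were found in 3 of 469 aged and 62 of 71 young Dcn-gate barcodes. The summed levels were 2633 CPM in the aged and 52980 CPM in the young Dcn gate, a log2 ratio of −4.33 (−4.36 to −4.30). Most Dcn-gate barcodes of both libraries held the transcript, 450 of 469 aged and 71 of 71 young. After each barcode was thinned to 2000 UMIs, the Col1a1 share was 83.8% of 450 aged barcodes (80.0 to 87.1) and 97.2% of 71 young barcodes (90.2 to 99.7).

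The Chad gate is named for its gene and not for a cell type. At least 3 meniscal chondrocyte markers were found in 100% of its barcodes in both libraries. At least 3 hyaline-type markers were found in 48.5% of its aged and 88.2% of its young barcodes. In the Chad gate Col1a1 ranged from 0 to 38 UMIs with a median of 0 in 33 aged barcodes. It ranged from 0 to 1388 UMIs with a median of 199 in 17 young barcodes. It was listed in 5 aged and 14 young barcodes of this gate, and a single barcode held 54.3% of the aged UMIs. With fewer than 20 young barcodes no ratio was formed for this gate. In the young Col2a1 gate Col1a1 was concentrated in few barcodes: the median was 0, 68 of 112 barcodes held none, and the 12 highest barcodes held 98.1% of the UMIs. Of these, 9 barcodes reached at least 100 UMIs, up to 708.

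Col3a1 encodes the only chain of type III collagen. Its level was 4097 CPM in the aged and 18888 CPM in the young stromal barcodes, a log2 ratio of −2.21 (−2.23 to −2.18). Single Dcn-gate barcodes held 0 to 474 UMIs with a median of 13 in the aged library, against 0 to 1995 UMIs with a median of 799 in the young library. The Dcn-gate level was 4426 CPM in the aged and 44319 CPM in the young library, a log2 ratio of −3.32 (−3.35 to −3.30). The shares of barcodes with the transcript lie near their ceiling for both genes and say little about amount: 448 of 469 aged and 69 of 71 young Dcn-gate barcodes held Col3a1, and after thinning the shares were 88.0% in the aged (84.6 to 90.9) and 95.8% in the young gate (88.1 to 99.1). In the Chad gate the median was 0 UMIs in the aged barcodes, with a highest value of 36, and 60 UMIs in the young barcodes, which held 4 to 243.

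Col3a1 was spread over the young Col2a1 gate where Col1a1 was not. It was listed in 106 of the 112 young Col2a1-gate barcodes, with a median of 15 and a highest value of 208 UMIs, and after thinning in 79.5% of them (70.8 to 86.5) against 15.2% (9.10 to 23.2) for Col1a1. Free RNA is the background to read this against. In young Cd79a-positive cells, which are B-lineage cells and should lack collagen RNA, the thinned shares were 7.65% for Col3a1 (6.76 to 8.61) and 8.72% for Col1a1 (7.77 to 9.74). The Col3a1 share of the Col2a1 gate lay far above that background, while the interval of the Col1a1 share overlapped it. By level, Col1a1 was at 1786 CPM in this gate, against 31.9 CPM in young Cd79a-positive cells. Its highest count was 708 UMIs in a barcode of this gate and 5 UMIs in those cells, so the few high barcodes were above background.

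**Figure D2:**
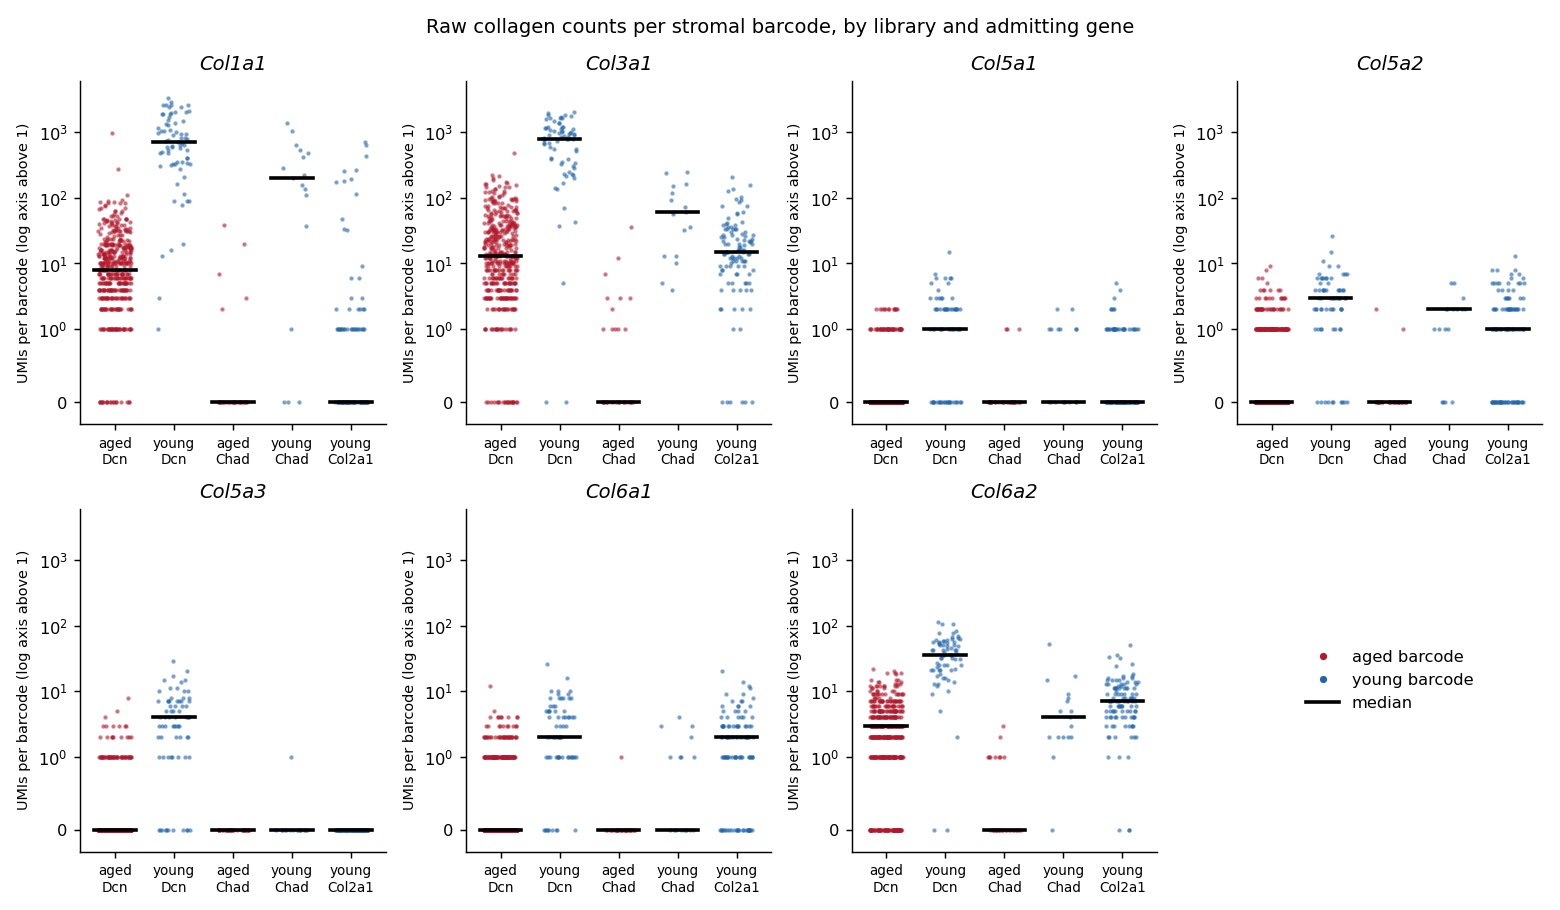
UMIs of each of the 7 collagen genes in every barcode (y axis, logarithmic above 1) by library and gate (x axis: Dcn, Chad and Col2a1, aged in red and young in blue); points are barcodes, spread sideways for display, and black bars are medians. The aged Dcn-gate medians of Col1a1 and Col3a1 lie at 8 and 13 UMIs, where the young medians are 698 and 799.

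The balance between type I and type III also differed between the libraries. The aged stromal barcodes held 0.60 Col1a1 UMIs per Col3a1 UMI (0.58 to 0.62), against 1.26 in the young stromal barcodes (1.25 to 1.28). For the Dcn gate the ratio was 0.59 (0.58 to 0.61) in the aged and 1.20 (1.18 to 1.21) in the young library. Per barcode, among those with at least 20 UMIs of the pair, Col1a1 made up a median of 33.8% in 255 aged Dcn-gate barcodes and 48.2% in 70 young ones. Between gates the balance differed more: Col1a1 made up a median of 79.9% in 14 young Chad-gate barcodes and 1.06% in 47 young Col2a1-gate barcodes. UMIs of a 3' kit count molecules and carry no length term, but capture can differ between transcripts, so these ratios are compared between libraries and gates and not read as chain proportions.

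Of the stromal barcodes with Col1a1, 17 of 458 aged and 2 of 134 young ones had no Col3a1 UMI. All but 1 of the aged ones had at most 15 Col1a1 UMIs. The highest Col1a1 barcode of the aged library had 972 Col1a1 and 0 Col3a1 UMIs. In the young library 2 Dcn-gate barcodes had 3322 and 2104 Col1a1 UMIs, and both had 0 Col3a1 UMIs. These 3 barcodes also carried Bglap (osteocalcin) at 999 UMIs in the aged barcode and at 5025 and 6363 UMIs in the young barcodes, and Ibsp (bone sialoprotein) at 32 in the aged and at 27 and 45 in the young barcodes. Other barcodes had Bglap with Col3a1: 1 aged barcode had 88 Bglap and 66 Col3a1 UMIs, and 1 young barcode had 212 and 41. Bglap and Ibsp are bone-forming cell markers. Sp7, another such marker, was at 0 in the Dcn gate of both libraries. Ibsp was not particular to the barcodes without Col3a1. At least 10 Ibsp UMIs were found in 6 aged and 21 young stromal barcodes, with medians of 31 and 1 Col1a1 UMIs. The highest Ibsp count, 805 UMIs, was in a young Col2a1-gate barcode with 1 Col1a1 and 8 Col3a1 UMIs. The 3 barcodes with high Col1a1 and no Col3a1 had 0 UMIs of Col6a1, Col6a2 and Col5a3. They had 2 UMIs of Col5a2 in the aged barcode and 9 and 4 in the young barcodes. They were singled out after their values were seen, and the stromal Col1a1 log2 ratio lay between −3.41 and −2.99 over the 16 alternative settings, which include leaving out the highest barcode.

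**Figure D3:**
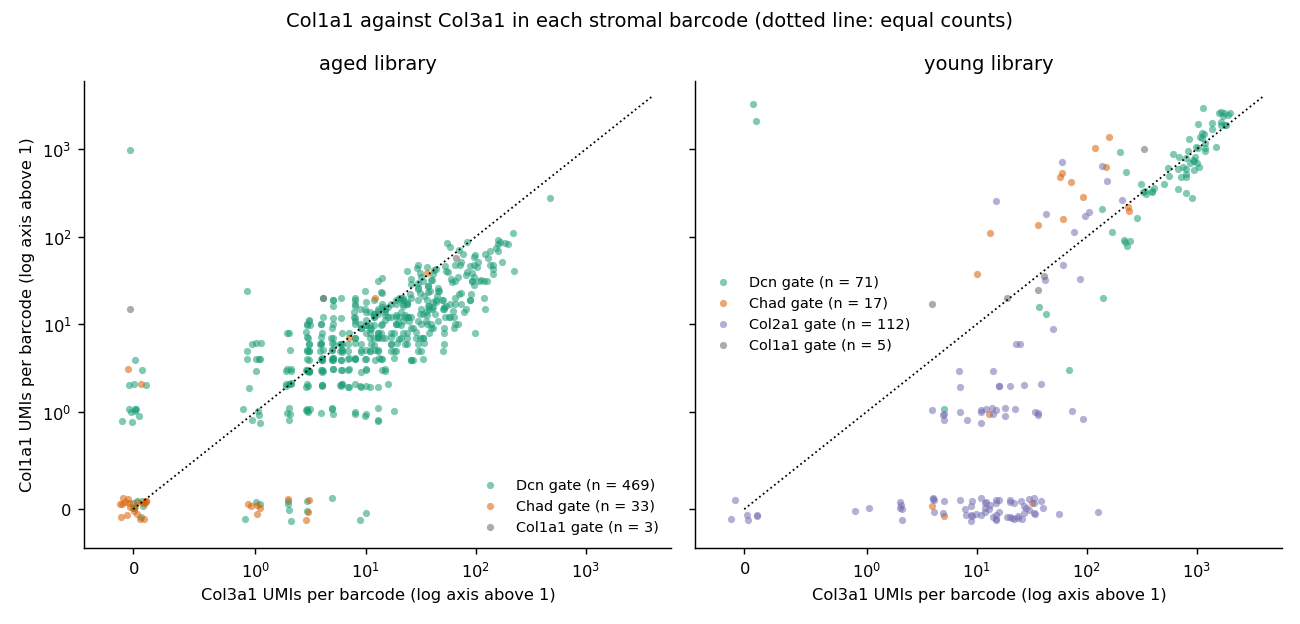
Col1a1 UMIs (y axis) against Col3a1 UMIs (x axis) in each stromal barcode, aged library left and young library right, both axes logarithmic above 1, points spread slightly for display and coloured by gate; the dotted line marks equal counts. Most aged Dcn-gate points lie below the line and under 100 UMIs, the young Col2a1-gate points lie mainly along the bottom with Col1a1 at 0, and the 3 points at the upper left have Col1a1 without Col3a1.

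Type V collagen is assembled from the chains of Col5a1 and Col5a2, with the chain of Col5a3 in a minority of trimers in some tissues. Its genes were far lower than those of types I and III, so their values rest on few UMIs. Col5a1 had 71 UMIs or 21.9 CPM in the aged and 189 UMIs or 57.1 CPM in the young stromal barcodes, a log2 ratio of −1.38 (−1.80 to −0.98). Its Dcn-gate level was 22.9 CPM in the aged and 98.9 CPM in the young library, a log2 ratio of −2.11 (−2.56 to −1.68). Single Dcn-gate barcodes held 0 to 2 Col5a1 UMIs with a median of 0 in the aged library, against 0 to 15 with a median of 1 in the young library. A UMI was present in 56 of 469 aged and 48 of 71 young barcodes, and after thinning in 3.78% of aged (2.22 to 5.98) and 9.86% of young Dcn-gate barcodes (4.06 to 19.3), with overlapping intervals. The stromal ratio computed from thinned counts was −0.74, short of 2-fold.

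Col5a2 had 77.4 CPM in the aged and 153.8 CPM in the young stromal barcodes, a log2 ratio of −0.99 (−1.21 to −0.77). Its Dcn-gate level was 82.8 CPM in the aged and 201 CPM in the young library, a log2 ratio of −1.28 (−1.53 to −1.02), with 0 to 9 UMIs and a median of 0 per aged barcode and 0 to 26 UMIs and a median of 3 per young barcode. Its Dcn-gate ratio was −0.73 for Postn under 10 and 0.29 for Postn of at least 10. Col5a2 UMIs were in 150 of 469 aged and 61 of 71 young Dcn-gate barcodes, and after thinning in 13.6% of aged (10.5 to 17.1) and 32.4% of young ones (21.8 to 44.5). It was also present in the young Col2a1 gate, at 119.9 CPM and in 76 of 112 barcodes. In the Chad gate it was listed in 2 of 33 aged and 13 of 17 young barcodes. The Col5a2 UMIs per Col5a1 UMI numbered 3.54 (2.71 to 4.67) in the aged and 2.69 (2.27 to 3.20) in the young stromal barcodes, with overlapping intervals.

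Among stromal barcodes Col5a3 was found almost only in the Dcn gate. It had 98 UMIs in the aged and 362 UMIs in the young Dcn gate, 33.0 and 277 CPM, a log2 ratio of −3.07 (−3.41 to −2.75). Single barcodes held 0 to 8 UMIs with a median of 0 in the aged Dcn gate, against 0 to 29 with a median of 4 in the young Dcn gate. UMIs were present in 63 of 469 aged and 60 of 71 young barcodes, and after thinning in 4.89% of aged (3.09 to 7.31) and 45.1% of young Dcn-gate barcodes (33.2 to 57.3), the widest gap in detection of the 7 genes in this gate. In the Chad gate it had 0 UMIs in 33 aged barcodes and 1 UMI in 17 young barcodes. In the young Col2a1 gate it had 0 UMIs in 112 barcodes, which allows a share of up to 2.68% of barcodes with a UMI at the limit of 3 counts, while Col5a1 and Col5a2 were listed in 34 and 76 of the same barcodes. Relative to Col5a1, the young Dcn gate held 2.81 Col5a3 UMIs per Col5a1 UMI (2.29 to 3.46), and the young Col2a1 gate 0 with an upper limit of 0.082.

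The upstream sequences of Col5a3 and Col5a2 are shown as a pair of type V genes of which 1 had 0 UMIs in the young Col2a1 gate and the other was present there. They cover the 250 bases before the annotated start in RefSeq, rat build GRCr8, each 5′ to 3′ on the gene's own strand. The build used for the counts is not given in the sources used here, and these coordinates belong to the RefSeq table alone. Capitals mark matches to the Sp1-type GC box GGGCGG and the CCAAT box CCAAT on either strand. Col5a3 lies at chr8:27625949-27626198 and Col5a2 at chr9:55090152-55090401, both on the minus strand.
Col5a3: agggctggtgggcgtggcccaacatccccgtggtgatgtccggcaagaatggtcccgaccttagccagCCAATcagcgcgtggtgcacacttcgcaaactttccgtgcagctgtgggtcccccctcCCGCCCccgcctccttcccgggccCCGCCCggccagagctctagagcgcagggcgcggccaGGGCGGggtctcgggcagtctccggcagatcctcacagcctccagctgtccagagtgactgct
Col5a2: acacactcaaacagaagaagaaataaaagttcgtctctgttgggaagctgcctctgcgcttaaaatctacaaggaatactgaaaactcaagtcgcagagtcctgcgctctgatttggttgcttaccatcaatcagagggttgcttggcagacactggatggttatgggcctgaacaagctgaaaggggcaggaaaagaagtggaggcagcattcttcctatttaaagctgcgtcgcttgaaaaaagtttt
The Col5a3 window is 68.8% G and C and holds 3 matches to GGGCGG and 1 to CCAAT. The Col5a2 window is 44.8% G and C, against a median of 51.2% over 33469 windows, and holds no match to either motif or to TATAAA, the third motif searched. Of all these windows 30.5% hold GGGCGG, 34.0% CCAAT and 12.9% TATAAA. The table held 2 further members. The Col5a1 window is 71.6% G and C with 1 match to GGGCGG, and the Col6a1 window is 60% G and C with no match to the 3 motifs. These matches describe letters and were not linked to binding.

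Type VI collagen was read from Col6a1 and Col6a2, the alpha 1 and alpha 2 chains that join the Col6a3 chain in each unit. Col6a2 came next to Col1a1 and Col3a1 by UMIs in the Dcn gate of both libraries, among the 42 collagen genes matched by symbol. Col1a2 and Col6a3 were not among these. It had 528 CPM in the aged and 1203 CPM in the young stromal barcodes, a log2 ratio of −1.19 (−1.27 to −1.11). Its Dcn-gate level was 567 CPM in the aged and 2161 CPM in the young library, a log2 ratio of −1.93 (−2.02 to −1.84). Single Dcn-gate barcodes held 0 to 22 Col6a2 UMIs with a median of 3 in the aged library, against 0 to 113 with a median of 36 in the young library. The transcript was in 399 of 469 aged and 69 of 71 young barcodes. The thinned shares were 61.6% of aged (56.9 to 66.1) and 93.0% of young Dcn-gate barcodes (84.3 to 97.7). The young Col2a1 gate held 566 CPM of Col6a2, with a median of 7 UMIs and the transcript in 109 of 112 barcodes.

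Col6a1 differed less than Col6a2 between the Dcn and Col2a1 gates of the young library. It had 70.0 CPM in the aged and 176 CPM in the young stromal barcodes, a log2 ratio of −1.33 (−1.56 to −1.11). Its Dcn-gate level was 75.8 CPM in the aged and 207 CPM in the young library, a log2 ratio of −1.45 (−1.71 to −1.19), with 0 to 12 UMIs and a median of 0 per aged barcode and 0 to 26 UMIs and a median of 2 per young barcode. The ratio was −0.66 for Postn under 10 and −0.49 for Postn of at least 10. UMIs of Col6a1 were in 135 of 469 aged and 62 of 71 young Dcn-gate barcodes. Across gates of the young library it had 163 CPM (145 to 183) in the Col2a1 gate and 207 CPM (183 to 233) in the Dcn gate. The thinned shares were 12.2% of aged (9.34 to 15.6) and 22.5% of young Dcn-gate barcodes (13.5 to 34.0), and 24.1% of young Col2a1-gate barcodes (16.5 to 33.1). The Col6a2 UMIs per Col6a1 UMI numbered 7.48 (6.51 to 8.64) in the aged and 10.4 (9.22 to 11.9) in the young Dcn gate. In the young Col2a1 gate the ratio was 3.47 (3.03 to 3.97). In the Chad gate Col6a1 had 1 UMI in 33 aged and 16 UMIs in 17 young barcodes, and Col6a2 had 12 and 137 UMIs in the aged and young barcodes.

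**Figure D4:**
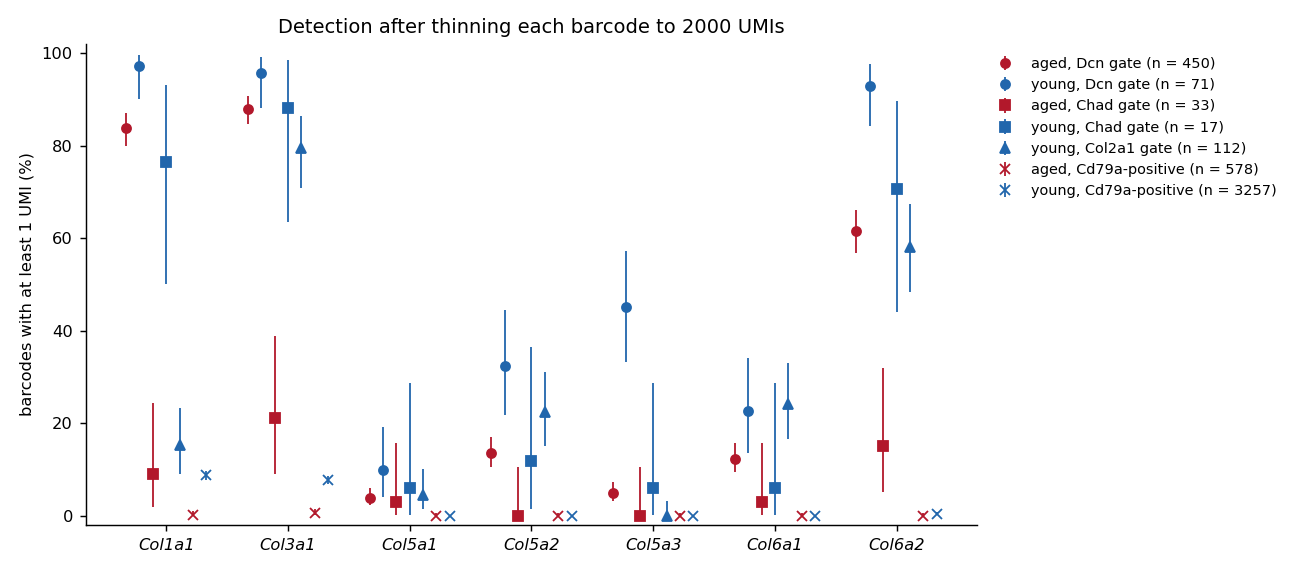
Share of barcodes with at least 1 UMI of each gene (y axis, %) after each barcode was thinned to 2000 UMIs, by gate (marker shape) and library (aged red, young blue), with Cd79a-positive cells as the free-RNA background (crosses) and exact 95% intervals. Col5a3 is at 45.1% in the young Dcn gate and at 0 in the young Col2a1 gate, where Col3a1 is at 79.5%.

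Among the 42 collagen genes matched by symbol, the order of the members differed between libraries. Col1a2, the gene of the alpha 2 chain of type I, and Col6a3 were not among these 42. The ranks and shares therefore leave both out. In the aged Dcn gate Col3a1 came first with 50.2% of the UMIs of the 42 genes, then Col1a1 with 29.9% and Col6a2 with 6.43%. In the young Dcn gate Col1a1 came first with 52.0%, then Col3a1 with 43.5% and Col6a2 with 2.12%. The other 4 members ranked 7th to 14th in the aged and 7th to 12th in the young Dcn gate. In the young Col2a1 gate Col2a1 led with 41.8%, and Col1a1 and Col3a1 held 7.86% and 7.27%. Neither ratio interval of Col1a1 over Col3a1 given above reaches 1 in the Dcn gates. Those intervals cover counting error in summed UMIs and not the spread between barcodes. Among barcodes with at least 20 UMIs of the pair, Col1a1 exceeded Col3a1 in 43 of 255 aged and 32 of 70 young Dcn-gate barcodes. The young order thus holds for summed UMIs and not for the medians per barcode, which were 698 for Col1a1 and 799 for Col3a1.

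Free RNA was measured in 732 aged and 3342 young Cd79a-positive cells outside the stromal-gene rule, at median depths of 5115.5 and 4097 UMIs in the aged and the young library. The Col1a1 share was 1.09% in the aged cells (0.47 to 2.14) and 20.3% in the young cells (19.0 to 21.7). The Col3a1 share was 2.46% in the aged cells (1.46 to 3.86) and 19.9% in the young cells (18.5 to 21.3). The means were 0.0109 Col1a1 UMIs per aged cell and 0.245 per young cell. The other 5 genes were found in 0 to 0.14% of aged and 0.030 to 1.26% of young cells. Set against the mean per stromal barcode, the free-RNA mean was at most 0.70% in the aged library, for Col5a3, and at most 0.15% in the young library, also for Col5a3. With at least 5 Cd79a UMIs, which 0 aged and 32 young cells had, the young Col5a3 value was 5.27% on 3 UMIs. Subtracting the free-RNA mean of all the Cd79a-positive cells of each library left the log2 ratio of the 7 genes at −2.61. The aged Chad gate's thinned shares of 9.09% for Col1a1 (1.92 to 24.3) and 21.2% for Col3a1 (8.98 to 38.9) rest on 3 and 7 of 33 barcodes, beside 0.17% and 0.52% in aged Cd79a-positive cells.

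The collagen UMIs were not all inside the stromal rule. Kept barcodes with a stromal gene and a Ptprc UMI numbered 45 in the aged and 35 in the young library, with median depths of 10204 and 18707 UMIs, and they held 5.93% of all aged and 14.5% of all young Col1a1 UMIs. The rule that Ptprc be 0 thus left out more Col1a1 in the young than in the aged library. Col5a3 was the member with the largest part outside: its stromal barcodes held 49.5% of its aged and 68.5% of its young UMIs, where the other 6 genes had 83.5 to 88.4% of their aged and 82.8 to 87.6% of their young UMIs there.

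Co-detection of the chains differed by pair. After thinning, 76.9% of 450 aged and 94.4% of 71 young Dcn-gate barcodes held both Col1a1 and Col3a1, and both were in 14.3% of the 112 young Col2a1-gate barcodes. Across stromal barcodes, Pearson's r of log counts per 10000 UMIs for this pair was 0.75 in 505 aged and 0.83 in 205 young barcodes. Within the Dcn gate r was 0.70 in 469 aged and 0.51 in 71 young barcodes. Barcodes of a library share depth and free RNA, so these coefficients are descriptions. At 2000 UMIs per barcode the stromal r was 0.66 in the aged and 0.84 in the young library. Col3a1 and Col6a2 had r of 0.57 in aged and 0.67 in young stromal barcodes, and 0.49 in the aged and 0.80 in the young Dcn gate, where thinned counts gave 0.38 and 0.56 in the aged and young gate. Col6a1 and Col6a2, chains of the same collagen, had r of 0.33 in aged and 0.40 in young stromal barcodes, but 0.17 and 0.16 in the aged and young ones on thinned counts. Col5a1 and Col5a2 had r of 0.16 in aged and 0.43 in young stromal barcodes, where 30 of 505 aged and 80 of 205 young barcodes held both. On thinned counts 2 aged and 4 young barcodes held both and r was near 0, at −0.0041 in the aged and 0.079 in the young library. Thinned Col5a1 and Col5a3 were together in 0 aged and 3 young stromal barcodes.

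Col5a3 had r of 0.22 with Col3a1 and 0.19 with Col1a1 in the aged stromal barcodes, against 0.69 and 0.62 for these pairs in the young ones. Thinned counts gave 0.15 and 0.099 in the aged and 0.47 and 0.42 in the young stromal barcodes. Inside the young Dcn gate the same pairs had r of 0.33 and 0.11, and 0.087 and −0.062 on thinned counts. All 32 young Dcn-gate barcodes with a thinned Col5a3 UMI also held Col1a1 and Col3a1. At 2000 UMIs the number of the 7 genes found in a barcode was most often 3 in the aged Dcn gate, in 40.2% of barcodes, and 4 in the young Dcn gate, in 39.4%. At least 5 were found in 17 of 450 aged and 21 of 71 young Dcn-gate barcodes, and no barcode held all 7.

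**Figure D5:**
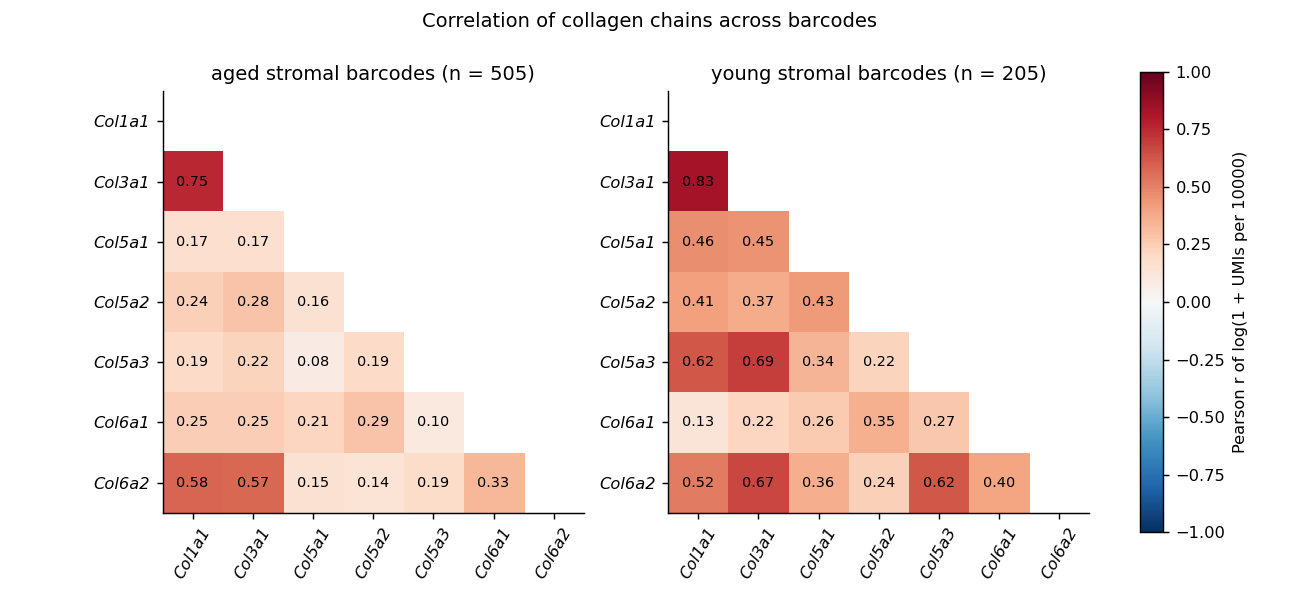
Pearson's r between pairs of collagen genes (both axes) across stromal barcodes, computed on log(1 + UMIs per 10000) of unthinned counts, aged library left and young library right, with the value in each cell. Col1a1 with Col3a1 is the highest pair in both libraries, at 0.75 and 0.83 in the aged and young library, and the Col5a3 row is paler in the aged library.

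The genes most like each member across stromal barcodes were ranked among 4534 genes found in at least 10% of barcodes of each library, by the mean of r over the 2 libraries. For Col1a1 they were Col3a1, with r of 0.75 in the aged and 0.83 in the young library, then Ctsh (0.52 aged, 0.76 young), Lgals1 (0.52 aged, 0.74 young), Serpinf1 (0.52 aged, 0.71 young) and Igfbp6 (0.37 aged, 0.76 young). For Col3a1 they were Col1a1, Col6a2, Dpt (0.39 aged, 0.83 young), Lgals1 and C1r. For Col6a2 they were Col3a1, Aoc3 (0.44 aged, 0.72 young), Ctsh, Col1a1 and C1r. For Col5a2 the first 4 were other members, Col3a1, Col1a1, Col6a1 and Col5a1, at mean r of 0.29 to 0.33, followed by Col14a1. For Col6a1 they were Col6a2, Col5a2, Col14a1, Rrbp1 and C1qtnf2, at mean r of 0.26 to 0.36. Serpinf1 and Dpt encode secreted matrix-associated proteins, and Rrbp1 a ribosome-binding protein of the endoplasmic reticulum. Col5a1 and Col5a3 had under 100 UMIs in a library and were not ranked.

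The Dcn gate itself differed in make-up between the libraries. Postn, periostin, a matrix protein of collagen-rich connective tissue, reached at least 10 UMIs in 12 of 469 aged (2.56%) and 49 of 71 young Dcn-gate barcodes (69.0%). This split was made after the data were seen and uses raw UMIs, which were not scaled to depth. Among barcodes with Postn under 10, Col1a1 had 2542 CPM in 457 aged and 33788 CPM in 22 young barcodes, and Col3a1 had 4154 CPM in the aged and 19077 CPM in the young ones. Among barcodes with Postn of at least 10, Col1a1 had 6120 CPM in the 12 aged and 60409 CPM in the 49 young barcodes, and Col3a1 had 14896 and 54091 CPM in the aged and young ones. In each Postn class the genes short of 2-fold lower were Col5a2 and Col6a1. Col5a2 was the exception in direction, with 279 CPM in the 12 aged and 229 CPM in the 49 young Postn-high barcodes, on 21 aged UMIs.

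Of 18 tested genes of the folding and modification list, 10 were at least 2-fold lower and 0 higher among aged stromal barcodes, with a median log2 ratio of −1.26, where 8.66% of all genes tested were lower. Of 17 in the Dcn gate 8 were lower and 0 higher, where 6.68% of all genes tested were lower. P3h3, a prolyl 3-hydroxylase named with its value already known, lay above 0 at 0.42 (0.23 to 0.61) in stromal barcodes. Serpinh1, the collagen chaperone HSP47, had 630 CPM in the aged and 1759 CPM in the young stromal barcodes, a log2 ratio of −1.48 (−1.56 to −1.41). Sparc, a collagen-binding matrix protein, had 2900 CPM in the aged and 43366 CPM in the young stromal barcodes, a log2 ratio of −3.90 (−3.93 to −3.87). Ppib and P4hb, a prolyl isomerase and the beta subunit of prolyl 4-hydroxylase, had log2 ratios of −0.69 and −0.57, short of 2-fold.

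Of 5 export and propeptide processing genes tested in the Dcn gate, 4 were at least 2-fold lower in the aged library and 0 higher, beside 6.68% of all genes tested. The 4 were Creb3l1, a transcription factor of the secretory pathway (−2.27, −2.49 to −2.05), Bmp1, the C-propeptidase (−1.79, −2.16 to −1.43), Pcolce, its enhancer (−1.33, −1.40 to −1.27), and Adamts2, the N-propeptidase (−1.24, −1.44 to −1.03). Among all stromal barcodes, where 8.66% of genes tested were lower, 2 of 8 were lower, Creb3l1 at −1.42 and Tll1 at −1.97, the second named after its value was seen, and Adamts2 was at −0.15. Of the crosslinking genes, Loxl2 and Loxl3 of 4 tested were at least 2-fold lower among aged stromal barcodes, beside 8.66% of all genes, at −1.61 and −2.71, while Lox was at −0.39 and Loxl1 at −0.05. Of 3 tested in the Dcn gate 1 was lower, Loxl2 at −1.55, beside 6.68% of all genes.

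The collagens of hyaline cartilage were nearly missing from the aged stromal barcodes, which held no Col2a1 gate. Of 10 tested fibril-forming or fibril-associated collagens outside the 7, 8 were at least 2-fold lower and 0 higher in aged stromal barcodes, beside 8.66% of all genes tested. Col2a1 had 3.08 CPM in the aged and 5036 CPM in the young library and Col11a1, a chain of type XI, had 32.4 and 1683 CPM in the aged and young library; Col2a1 is part of the stromal rule. Within the Dcn gate 2 of 5 were lower, Col11a1 at −1.70 and Col11a2 at −3.85, and Col12a1 was higher at 1.28, beside 6.68% of genes lower and 9.09% higher. Col11a2 was named with its value already known.

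Fibril assembly partners differed in both directions, with 6 of 18 at least 2-fold lower and 6 at least 2-fold higher in aged stromal barcodes, beside 8.66% of all genes lower and 10.4% higher. In the Dcn gate 4 of 17 were lower and 5 higher, beside 6.68% and 9.09% of all genes. Both counts of higher genes include Dcn, decorin, which is part of the stromal rule and admits the Dcn gate, so its ratio is not independent of the rule. Fn1, fibronectin, had 6177 CPM in the aged and 2622 CPM in the young stromal barcodes, a log2 ratio of 1.24 (1.20 to 1.27). Bgn, biglycan, was at −1.16 and Comp at −0.35, and in the Dcn gate Comp was at 1.41 and Bgn at −0.17. Comp thus changed sign between all stromal barcodes and the Dcn gate. The others past 2-fold in the Dcn gate, named with their values already known, were Kera, Postn, Dpt and Emilin1, which were lower, and Fmod, Fbln1 and Vwa1, which were higher.

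Collagenases and their inhibitors gave 5 of 10 genes at least 2-fold higher and 0 lower in the aged library, both among stromal barcodes and in the Dcn gate, where 10.4% of all genes tested among stromal barcodes and 9.09% in the Dcn gate were at least 2-fold higher. Mmp3, stromelysin, had 861 CPM in the aged and 307 CPM in the young stromal barcodes, a log2 ratio of 1.49 (1.38 to 1.59). Timp1, an inhibitor of these enzymes, had 849 CPM in the aged and 391 CPM in the young stromal barcodes, a log2 ratio of 1.12 (1.02 to 1.21). Mmp9, Mmp13 and Timp3 were the other 3, named after their values were seen. In the Dcn gate Mmp9 had 19 aged and 2 young UMIs and Mmp13 had 53 aged and 1 young, so both ratios rest on few young UMIs. Mmp2, a gelatinase, was at 0.12 among stromal barcodes and at −0.66 in the Dcn gate. Ctsk and Mmp14, named with their values already known, were at −0.97 and −0.68 in the Dcn gate.

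Of the collagen receptors, 3 of 10 were lower in aged stromal barcodes, beside 8.66% of all genes. They were Itga10 at −1.66, Cspg4 at −1.72 and Itga1 at −1.78, the last named after its value was seen. Ddr2, a collagen-activated kinase, was the 1 receptor at least 2-fold higher, at 1.10 (0.70 to 1.51), beside 10.4% of all genes. None of the 9 receptors tested in the Dcn gate was past 2-fold in either direction. Of 21 tested transcription inputs 1 was lower among aged stromal barcodes, beside 8.66% of all genes, Sox9, the chondrocyte factor, at −2.55. Within the Dcn gate 1 was lower, beside 6.68% of all genes, Twist2 at −1.28. In this gate 9.09% of all genes tested were at least 2-fold higher. Those of the list that were higher included Ccn2, a TGF-beta target, at 1.47 (1.37 to 1.56) and Egr1, an immediate-early factor, at 1.43 (1.34 to 1.51). Smad7 and Runx2 were also at least 2-fold higher; like Twist2 they were named with their values already known, and the interval of Runx2 included 0. Col1a1 and Col3a1 were at −4.33 and −3.32 in the same gate.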

How the data were processed

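Per the labels' protocols, libraries were made with a 10x Genomics 3' v3 kit. The deposited matrices hold counts of UMIs per gene and barcode, whole numbers that the authors did not normalise. The submitters' processing notes name Cell Ranger 6.1.1. Which build and annotation were used is not given in the sources used here. The members and gene lists were chosen with earlier results of these data known.

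Kept barcodes had 500 or more genes and no more than 20% of UMIs from 13 mitochondrial genes. No doublet caller was used, and doublets were addressed through alternative settings. The stromal rule and gates are described with the results. Counts were summed per library and gate and scaled to 1000000 UMIs (CPM). The aged over young ratio carries an exact conditional binomial 95% interval, and shares carry Clopper-Pearson intervals. A gene with at least 20 summed UMIs was tested, meaning its ratio was formed, and past 2-fold was judged by size alone; 0 counts were set to a floor of 3. Ratios within a gate needed 20 barcodes per library. Each barcode was thinned to 2000 UMIs for shares, which left out 19 aged and 1 young stromal barcodes. From each list the 4 genes with most UMIs in a gate were named, and for each member with at least 100 UMIs per library the 5 most alike genes. Scaling by edgeR 4.0.16 and DESeq2 1.42.0 in R 4.3.3 served as alternatives. Tables and figures were made with pandas 2.3.3, matplotlib 3.10.9, scipy 1.17.1 and numpy 2.4.6 under Python 3.11.15. The ratio and thinning steps were tested on simulated data. One result of the transcription list is not reported here.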

Additional observations from a re-analysis of the deposited data

Results flagged for a closer look

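Col5a3 had a signal outside the stromal barcodes, in barcodes that entered none of the gates. Kept barcodes that met no stromal gene and held at least 10 UMIs of Mpo, the myeloperoxidase of granulocyte precursors, had 13.5 CPM of Col5a3 in 120 aged barcodes (9.73 to 18.2) and 7.47 CPM in 112 young barcodes (4.73 to 11.2). The level in Cd79a-positive cells was 0.143 CPM in the aged and 0.351 CPM in the young library. The 2 groups overlap, since 0.83% of the aged and 8.93% of the young Mpo barcodes held a Cd79a UMI. The 32 young cells with at least 5 Cd79a UMIs, with a median depth of 14163 UMIs, had 5.51 CPM on 3 UMIs, inside the interval of the young Mpo barcodes. Col5a3 was listed in 31 of these aged and 20 of these young barcodes, with at most 3 UMIs in any. The same barcodes had 0 UMIs of Col5a1 and Col6a1 in both libraries, and 0 aged and 1 young UMI of Col5a2. Col1a1 had 1 UMI in the aged barcodes and 17.5 CPM in the young ones, below the 31.9 CPM of young Cd79a-positive cells. Elane, an elastase of the same precursors, had 5394 CPM in the aged and 3618 CPM in the young Mpo barcodes, and Dcn had 3.54 and 2.27 CPM in the aged and young ones. Mpo barcodes are deep, with medians of 26212 aged and 24051.5 young UMIs, against 3198 aged and 3729 young UMIs in the other barcodes outside the rule. After thinning to 2000 UMIs, Col5a3 was left in 1 of 120 aged and 2 of 110 young Mpo barcodes, so the levels rest on few UMIs. The choice of Mpo was made after the values were seen.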

How the results depend on the processing

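All 7 genes stayed lower in the aged library under the 16 alternatives for stromal barcodes, and 5 to 7 were at least 2-fold lower in each. The share of all genes at least 2-fold lower was 8.66% at the main setting and was not computed under these alternatives. The log2 ratio of their sum, −2.61, was −2.58 without the cell filter, −2.63 and −2.58 at stromal thresholds of 5 and 20 UMIs, −2.67 with edgeR's TMM, −2.67 with DESeq2's size factors, −2.66 with totals that leave out the collagen genes, −2.42 as a mean of barcode CPM, −2.63 without the highest barcode, −2.26 without the deepest 8% of barcodes, −2.59 without barcodes with a Cd79a UMI and −2.42 after thinning. It was −2.71 with no condition on Ptprc, which was added after the data were seen, as were the Dcn-gate settings on Postn, thinning, scaling and Ptprc. Col5a2 was at least 2-fold lower in 7 of the 16 settings and Col6a2 in 13.

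In the Dcn gate the sum, −3.68, was −3.72 at a threshold of 20, −2.87 for Postn under 10, −2.39 for Postn of at least 10, −3.60 after thinning, −3.82 with totals without the collagen genes, −3.64 with TMM, −3.65 with DESeq2's size factors and −3.64 with up to 1 Ptprc UMI. Col5a2 turned to 0.29 for Postn of at least 10, on 12 aged barcodes; no other member changed sign under the 11 settings. Where a value moved, the cause was not tested.

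Cd79a of at least 5 UMIs gave no aged cells outside the stromal rule. No paired analysis was possible because each age has 1 library. Depth limits Col5a1, Col5a3 and Col6a1, which were thinned to few barcodes with a UMI. Age cannot be told apart from animal, tissue sampling or library.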
